A study of Mus musculus with 12 samples.

Results

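Glycolysis splits glucose into pyruvate, and the hypoxia response, driven by Hif transcription factors, raises many of the same enzymes together with genes that spare oxygen or adapt the cell to its lack. The genes described here are 36 genes of glucose uptake, glycolysis, lactate and pyruvate handling, oxygen sensing and Hif target function. They were taken by symbol from a list that was drawn up with earlier results of these data known. All 36 were found among the 24470 genes of the count table, and all 36 were among the 15572 genes that passed a filter on low counts.

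RNA-seq was performed on whole mouse testes at E14.5 in 12 libraries, each from a pool of 3 testes. The 6 control pools had the genotype Nr2f2 f/f, and the 6 conditional knockout (cKO) pools had the genotype Wt1 CreER x Nr2f2 f/f, so both groups carried floxed alleles of Nr2f2, a nuclear receptor gene of testicular interstitial cells, and only the cKO pools carried the Cre. Wt1 CreER is a Cre recombinase expressed from the Wt1 locus that becomes active after tamoxifen, which the pregnant dams received at earlier stages. Wt1 marks somatic precursors of the gonad, so deletion was aimed at those cells and their descendants rather than at every cell of the testis, and recombination of this kind need not reach every cell. The comparison asks which genes differed between these genotypes, and the values below give its answer for the glycolysis and hypoxia genes. Since only the cKO pools carried the Cre, an effect of the Cre or of its place at the Wt1 locus cannot be told apart from loss of Nr2f2.

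In low oxygen, the prolyl hydroxylases of the Egln family no longer mark Hif alpha subunits for destruction, and the stabilised protein pairs with Arnt and binds short DNA elements with the core letters ACGTG or GCGTG near its targets. Those targets include most glycolytic enzymes, glucose and lactate transporters, a kinase that keeps pyruvate out of the mitochondrion, and the Egln genes themselves. Hif activity is set largely at the level of the protein, so the mRNA of Hif1a is not a measure of it. In the testis, Sertoli cells are known for high glycolytic flux and for exporting lactate to germ cells.

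The 6 control libraries held 7044531 to 39965574 counts each, and the 6 cKO libraries 7322959 to 59404778. Levels are given as CPM, counts scaled to a common library size by the TMM method, and log2 fold changes are cKO relative to control testes. P-values come from edgeR's quasi-likelihood test, adjusted by the Benjamini-Hochberg method over all 15572 genes, and an adjusted p under 0.05 is what is meant by called. They measure the spread between these pools, since the labels do not say how embryos and litters were divided among pools. The targeted gene, Nr2f2, averaged 175 ± 8.88 CPM over the control pools and 75.9 ± 24.5 CPM over the cKO pools (SD, n = 6), without overlap (log2 fold change -1.21, SE 0.16, adjusted p = 0.000548). Xist, which is transcribed from the inactive X chromosome of XX cells, goes against the tissue label in 4 libraries. It had 891 CPM in control replicate 1 and 304, 507 and 432 CPM in cKO replicates 3, 5 and 6, and no more than 7.67 CPM in the other 8 libraries. The summed level of 4 Y-linked genes was 197, 258, 225 and 232 CPM in those libraries and 286 to 445 CPM in the other 8, and that of 6 genes of ovarian supporting cells was 329, 156, 220 and 206 CPM against 65.6 to 88.2 CPM. The calls of glycolysis and hypoxia genes are therefore also given for the 5 control and 3 cKO libraries with Xist under 100 CPM, in which Nr2f2 had a log2 fold change of -0.94 (adjusted p = 0.00257).

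Sequence just upstream of the transcription start is shown for 4 Hif targets on which the results turn: P4ha2, which was called, and Bnip3, Ldha and Pgk1, each of which had its 3 highest levels in the same 3 control pools. The windows were taken from RefSeq on GRCm38.p6, the assembly called mm10, and cover the 250 bases before the start site, 5′ to 3′ on the strand of the gene. They lie at chr11:54100674-54100923 (plus strand) for P4ha2, chr7:138909507-138909756 (minus strand) for Bnip3, chr7:46845554-46845803 (plus strand) for Ldha and chrX:106186850-106187099 (plus strand) for Pgk1. Capitals mark ACGTG or its reverse complement CACGT, and the run CACGTG holds both.
P4ha2: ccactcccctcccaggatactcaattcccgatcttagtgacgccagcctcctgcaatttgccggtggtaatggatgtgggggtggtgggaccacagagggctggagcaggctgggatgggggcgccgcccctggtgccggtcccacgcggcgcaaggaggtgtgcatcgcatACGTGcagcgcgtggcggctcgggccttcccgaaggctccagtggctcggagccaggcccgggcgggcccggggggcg
Bnip3: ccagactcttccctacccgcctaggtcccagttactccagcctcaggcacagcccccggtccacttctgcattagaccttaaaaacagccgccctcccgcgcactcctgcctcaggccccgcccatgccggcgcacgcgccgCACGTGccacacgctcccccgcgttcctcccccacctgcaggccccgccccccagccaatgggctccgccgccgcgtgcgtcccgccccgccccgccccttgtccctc
Ldha: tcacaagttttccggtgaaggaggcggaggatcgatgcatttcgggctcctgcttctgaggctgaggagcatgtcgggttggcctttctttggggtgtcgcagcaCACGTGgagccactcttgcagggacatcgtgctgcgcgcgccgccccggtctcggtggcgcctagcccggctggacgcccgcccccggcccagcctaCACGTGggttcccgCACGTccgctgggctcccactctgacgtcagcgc
Pgk1: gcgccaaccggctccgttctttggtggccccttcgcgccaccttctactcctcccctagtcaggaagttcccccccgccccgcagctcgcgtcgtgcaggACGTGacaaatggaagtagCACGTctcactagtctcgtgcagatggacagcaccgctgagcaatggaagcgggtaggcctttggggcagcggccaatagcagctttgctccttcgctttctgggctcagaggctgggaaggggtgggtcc
The P4ha2 window held a single ACGTG. The Bnip3 window held 1 palindromic CACGTG, and the Ldha window held 2 of them and a further CACGT. The Pgk1 window held 1 ACGTG and 1 CACGT on either side of a short spacer.

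A RefSeq window of 300 bases, reaching 50 bases past the start, was found for 33 of the 36 genes. The exceptions were Slc2a3, Ndrg1 and Epas1. For Pgam1, Hif1a and Ldha, whose window is printed above, no GENCODE M21 transcript start was matched in the window by its letters. The Hif1a window (chr12:73907617-73907916) lies downstream of the gene start in the count table, 73901324. ACGTG occurred on either strand in 21 of the 33 windows (63.6%), and in 5305 of 27025 windows of the same length over all genes (19.6%). GCGTG occurred on either strand in 19 of the 33 windows (57.6%) and in 32.5% of all windows. At least 1 of the 2 motifs was present in 27 of the 33 (81.8%) and in 43.8% of all windows. The 36 genes were chosen in part as Hif targets, and the windows over all genes were not limited to genes that passed the filter. The shares therefore set unlike sets of genes side by side. A match of letters is a description of the sequence and was not tested as a binding site.

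Across the 36 genes, 2 were called lower in cKO testes, Slc2a3 and P4ha2, and none was called higher. Over all genes tested, 4.85% were called lower and 3.28% higher. At an unadjusted p under 0.05, 11 of the 36 were lower and 2 were higher, where 13.2% and 12.1% of all genes were. The log2 fold change was negative for 28 of the 36 and positive for 8, with a median of -0.17, against a median of 0.00 and 49.4% negative over all genes. The number of negative values was 27 when libraries were not scaled, 26 in the 8 libraries with low Xist, 25 without control replicate 1 and 20 by limma-voom with sample weights, which reduce the weight of libraries that fit poorly. DESeq2, which at the same threshold called 6.27% of its 16614 genes with an adjusted p lower and 5.28% higher, called 5 of the 36 lower (Slc2a3, Tpi1, Egln3, Ndrg1 and P4ha2) and Hif1a higher. Bulk RNA cannot tell fewer cells of a type from less RNA per cell, and this holds for every level below.

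**Figure D1:**
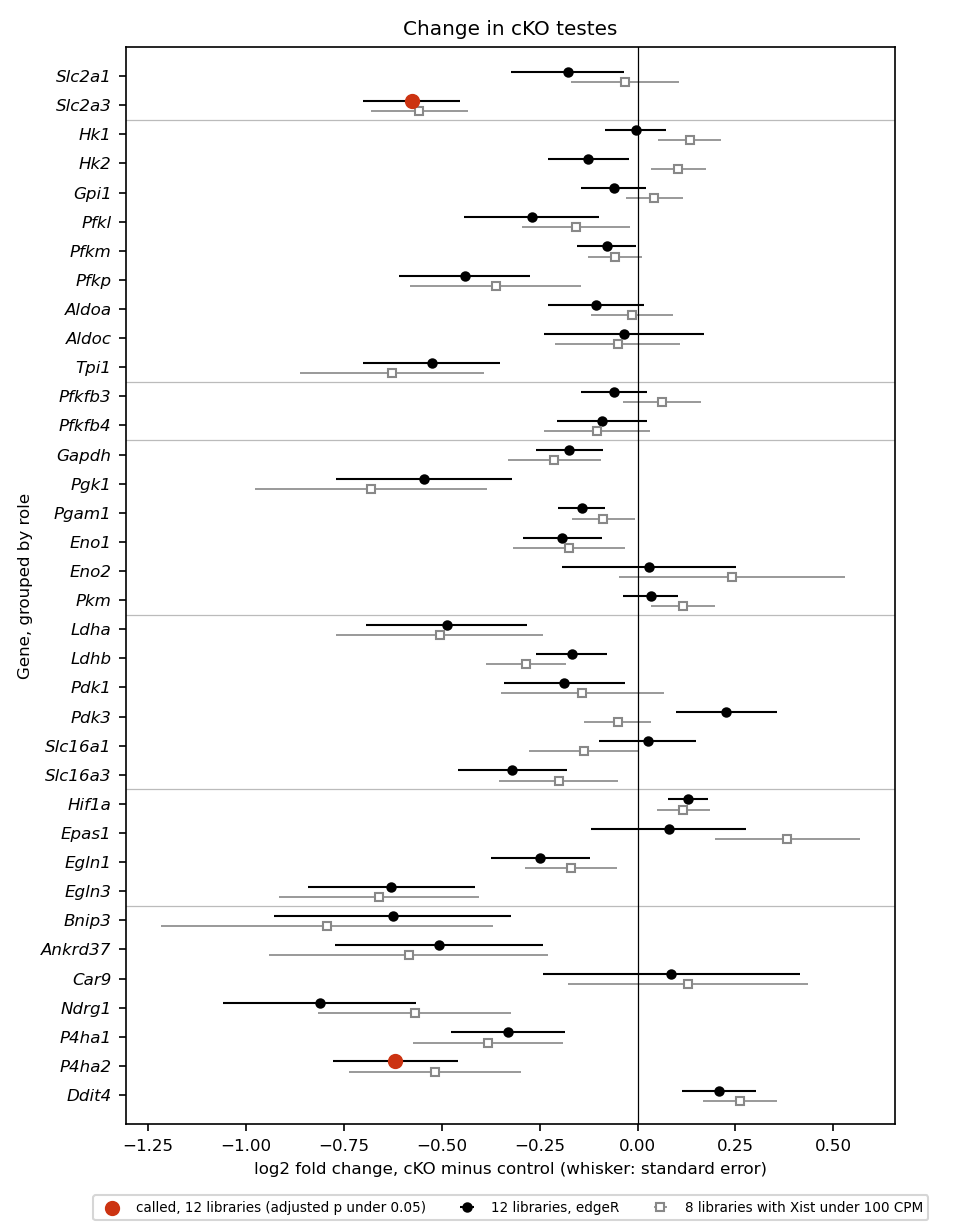
Log2 fold change of each of the 36 genes in cKO relative to control testes, grouped by role, with whiskers of 1 standard error, for all 12 libraries (filled points) and for the 8 with Xist under 100 CPM (open squares). With all 12 libraries, Slc2a3 at -0.58 and P4ha2 at -0.62 were the genes called, while Ndrg1 at -0.81 had the largest fall of the 36 with a wider error.

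The order of levels between genes was compared as CPM per kilobase of exon. In control testes, Gapdh had 584 ± 82.2, Eno1 375 ± 69.1, Pkm 356 ± 36.8, Ldhb 275 ± 38.5 and Aldoa 270 ± 65.1 CPM per kilobase (SD, n = 6). Eno1 and Pkm lay within each other's spread, as did Ldhb and Aldoa. Tpi1 (186 ± 60.7), Ldha (154 ± 59.5) and Pgk1 (125 ± 51.7) formed the next range and overlapped one another. The least abundant were Aldoc at 3.66 ± 1.28, Eno2 at 1.24 ± 0.486 and Car9 at 0.488 ± 0.208 CPM per kilobase, the last being a membrane carbonic anhydrase often used as a marker of hypoxic tissue. In cKO testes, Car9 (0.5 ± 0.247) and Eno2 (1.23 ± 0.139) were again the lowest, followed by Pfkp (2.82 ± 0.18), a form of phosphofructokinase. Gapdh has 40 near-identical copies in the mouse genome, Pgk1 has 3, Eno1 and Bnip3 have 2 each, and Gpi1, Pgam1, Pkm, Ldhb and Hif1a have 1 each (at least 98% identity over a read length), so reads of these genes may be assigned in part to a copy or dropped and their levels are uncertain.

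**Figure D2:**
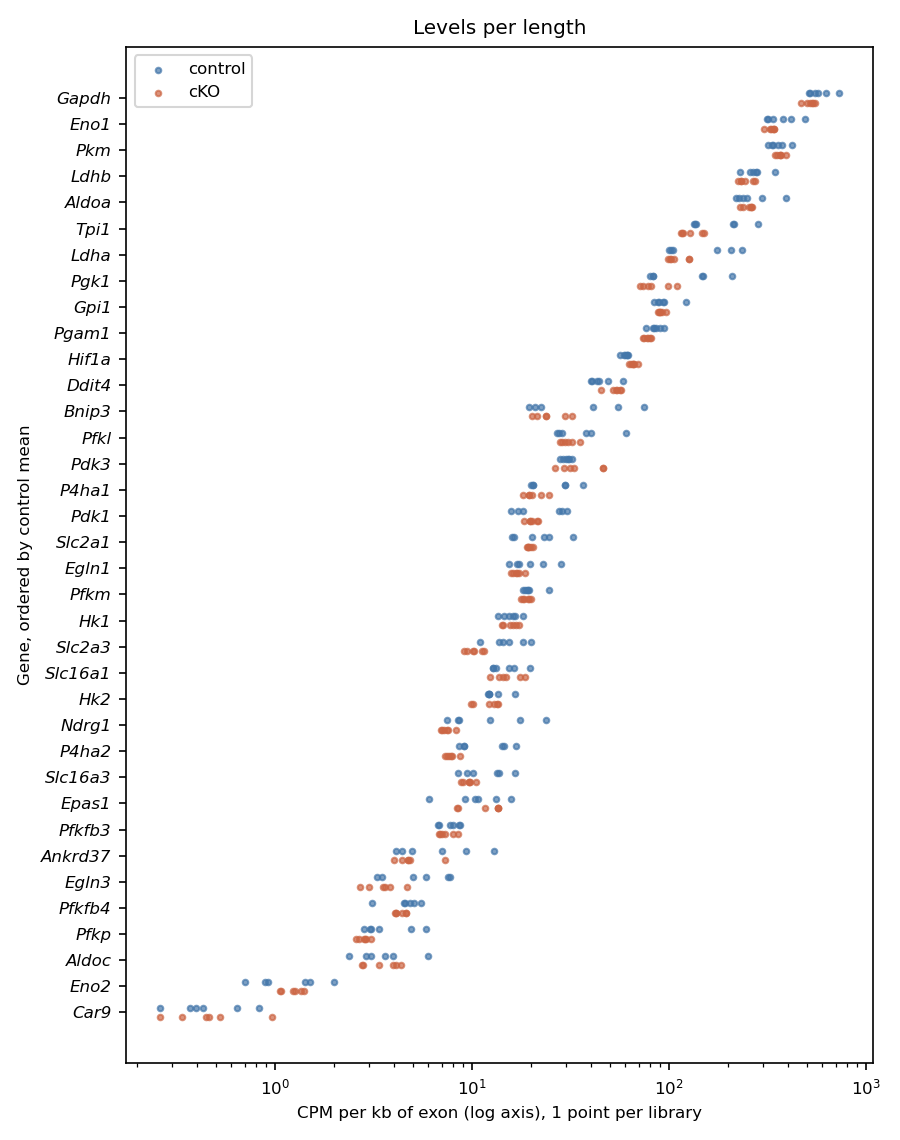
Level of each gene per kilobase of exon (CPM per kilobase, log axis) in control and cKO testes, ordered by the control mean, with a point for each pool. Levels span from 584 for Gapdh to 0.488 for Car9, and the points of the groups overlap for every gene other than Hif1a.

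Glucose enters fetal cells through facilitative transporters. Slc2a3 (Entrez Gene 20527, chr6:122727809-122742745, minus strand) encodes a high-affinity glucose transporter. It had 43.3, 61.0, 56.9, 54.3, 78.8 and 72.0 CPM in control replicates 1 to 6 and 45.4, 44.7, 37.1, 40.7, 36.2 and 40.01 CPM in cKO replicates 1 to 6. Control replicate 1, a library with high Xist, was the only control within the cKO range, and the other 5 controls lay above every cKO pool. The means were 61.0 ± 12.8 CPM in control pools and 40.7 ± 3.77 CPM in cKO testes, and the gene was called lower (log2 fold change -0.58, SE 0.12, adjusted p = 0.0104). It was called in all 12 fits that left out 1 library, at log2 fold changes from -0.66 to -0.48. With only the 8 libraries with low Xist it was called at -0.56 (SE 0.12, adjusted p = 0.0234), where 3.39% of genes were called lower. Slc2a1, the widely expressed basal glucose transporter, had a lowest, median and highest level of 52.0, 70.9 and 106 CPM in control pools and 62.0, 63.2 and 66.6 CPM in cKO testes, so the cKO pools fell inside the control range. It was not called (log2 fold change -0.18, SE 0.14, adjusted p = 0.451), and without control replicate 1 its log2 fold change was -0.03.

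Markers of cell types were summed by list, and no list was tested as a set. Over all genes tested, 4.85% were called lower and 3.28% higher. The summed level of 7 contractile cell markers was 345 to 462 CPM in control pools and 197 to 303 CPM in cKO testes, with 6 of the 7 called lower. That of 6 fetal Leydig cell markers was 1848 to 3138 CPM in control pools and 1034 to 1994 CPM in cKO testes, with 4 called lower, and that of 10 interstitial progenitor markers was 5446 to 6863 and 3248 to 5773 CPM, with 3 called lower. Macrophage markers, 7 in all, summed to 46.5 to 70.5 CPM in control pools and 69.4 to 84.3 CPM in cKO testes, with 3 called higher. The 8 erythroid markers summed to 1081 to 1574 CPM in control pools and 754 to 1149 CPM in cKO testes, and of them Hbb-bs, an adult beta globin gene, was called lower (log2 fold change -0.47, adjusted p = 0.0307). The 7 endothelial markers summed to 348 to 497 CPM and 348 to 424 CPM, and of them the angiopoietin receptor gene Tek was called lower (log2 fold change -0.41, adjusted p = 0.0352). Pax8, of the mesonephric epithelium, was called higher (0.47, adjusted p = 0.0488), and Wnt4, of the ovarian supporting cell list, lower (-0.77, adjusted p = 0.0249). The rest of that ovarian list had positive log2 fold changes and was not called: Irx3 (1.06), Lgr5 (0.80), Bmp2 (0.62), Fst (0.49) and Foxl2 (0.07). The 8 Sertoli cell markers (936 to 1488 and 979 to 1507 CPM) and the 7 germ cell markers (1129 to 2088 and 1561 to 1897 CPM) overlapped between groups and none was called. Every marker of those 2 lists was above 0 in every library. The part of these cell types in the values of the glycolysis and hypoxia genes was not tested.

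The first steps of glycolysis, from glucose to triose phosphates, showed no called gene. Hk1 and Hk2 encode hexokinases, which trap glucose in the cell as its phosphate. Hk1 had 62.9, 72.8 and 84.1 CPM in control pools and 65.5, 73.3 and 79.9 CPM in cKO testes as lowest, median and highest (log2 fold change -0.01, adjusted p = 0.977). For Hk2, the same values were 66.3, 67.2 and 90.8 CPM and 54.1, 69.2 and 74.3 CPM (log2 fold change -0.13, adjusted p = 0.463). Both overlapped widely. Phosphofructokinase, the committing step, has 3 forms, of which Pfkl is typical of liver, Pfkm of muscle and Pfkp of platelets. Pfkl had a median of 124 CPM in control pools and 113 CPM in cKO testes, Pfkm 57.4 and 56.4 CPM, and Pfkp 13.8 and 12.2 CPM, and Pfkp showed the largest fold change of the 3 (-0.44, SE 0.17, adjusted p = 0.12). The isomerase Gpi1 (-0.06) and the aldolases Aldoa (-0.11) and Aldoc (-0.04) had adjusted p-values of 0.67, 0.614 and 0.933 and overlapping groups. All 9 genes of this segment had a negative log2 fold change, with a median of -0.11, but this count depended on the fit. It was 8 of 9 when libraries were not scaled (Hk1 at 0.02), 6 of 9 in the 8 libraries with low Xist, 5 of 9 without control replicate 1 and 4 of 9 by limma-voom with sample weights.

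Tpi1 (Entrez Gene 21991, chr6:124810592-124814296, minus strand), the isomerase that interconverts the 2 triose phosphates, had the largest fall of this segment. Its controls stood at 339, 216, 219, 220, 455 and 344 CPM in replicates 1 to 6, and its cKO pools at 190, 185, 205, 187, 241 and 237 CPM. Control replicates 2, 3 and 4 thus lay within the cKO range, and control replicates 1, 5 and 6 lay well above it. The log2 fold change was -0.53 (SE 0.17) and was not called by edgeR (adjusted p = 0.0804). DESeq2 (adjusted p = 0.0327), edgeR with Xist as a covariate (adjusted p = 0.0483) and edgeR with replicate number as a block (adjusted p = 0.0444) called it. Among the 8 libraries with low Xist its log2 fold change was -0.63 and was not called (adjusted p = 0.119). Pfkfb3 and Pfkfb4 encode bifunctional enzymes that make and remove the sugar phosphate which activates phosphofructokinase. Pfkfb3 had 36.7, 42.9 and 47.0 CPM in control pools and 37.1, 39.0 and 45.9 CPM in cKO testes (log2 fold change -0.06, adjusted p = 0.676), and Pfkfb4 had medians of 16.4 and 14.8 CPM (log2 fold change -0.09, adjusted p = 0.645).

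The second segment, from triose phosphates to pyruvate, also held no called gene. Pgk1 (Entrez Gene 18655, chrX:106187100-106203699, plus strand) encodes the kinase that makes the first ATP of the pathway. It had 270, 146, 152, 150, 378 and 268 CPM in control replicates 1 to 6 and 143, 130, 147, 134, 200 and 180 CPM in cKO replicates 1 to 6. The control pools again separated within themselves, since replicates 2, 3 and 4 lay among the cKO pools and replicates 1, 5 and 6 above all of them. The log2 fold change was -0.55 with an SE of 0.22 (adjusted p = 0.148), and it was -0.33 without control replicate 5. In the 8 libraries with low Xist it was -0.68 and was not called (adjusted p = 0.163). There, cKO replicates 1, 2 and 4 lay below every control pool. Gapdh, which precedes Pgk1 in the pathway, had 766, 839 and 1090 CPM in control pools and 700, 782 and 826 CPM in cKO testes (log2 fold change -0.17, adjusted p = 0.216). The mutase Pgam1 (-0.14, adjusted p = 0.157) and the main enolase Eno1 (-0.19, adjusted p = 0.249) were also lower on average with overlapping groups. The neuronal enolase Eno2 (0.03, adjusted p = 0.953) and the pyruvate kinase Pkm (0.03, adjusted p = 0.792) had a small positive difference, and Pkm ranged from 823 to 1089 CPM in control pools and from 895 to 1018 CPM in cKO testes.

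Pyruvate can be reduced to lactate or sent to the mitochondrion. Ldha (Entrez Gene 16828, chr7:46845804-46855627, plus strand), the lactate dehydrogenase subunit that favours lactate production, had 392, 190, 194, 199, 446 and 330 CPM in control replicates 1 to 6. Its cKO pools had 191, 187, 200, 193, 239 and 238 CPM. The highest 3 values of the 12 belonged to control replicates 1, 5 and 6, and the other 3 controls did not stand apart from the cKO pools (log2 fold change -0.49, SE 0.21, adjusted p = 0.158, and -0.32 without control replicate 5). In the 8 libraries with low Xist the log2 fold change of Ldha was -0.51 (adjusted p = 0.227). Ldhb, the other subunit, varied less, with 299, 353 and 451 CPM in control pools and 292, 310 and 357 CPM in cKO testes (log2 fold change -0.17, adjusted p = 0.259). In the 8 libraries with low Xist, Ldhb had a log2 fold change of -0.28 and was not called (adjusted p = 0.107). Slc16a3, a lactate exporter, had medians of 52.3 CPM in control pools and 42.9 CPM in cKO testes (log2 fold change -0.32, SE 0.14, adjusted p = 0.172). Slc16a1, a transporter that carries lactate and pyruvate in either direction, had medians of 63.2 and 64.6 CPM (log2 fold change 0.03, adjusted p = 0.916).

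Pdk1 and the X-linked Pdk3 encode kinases that inactivate pyruvate dehydrogenase. Pdk1 had 82.0, 119 and 158 CPM in control pools and 95.0, 103 and 112 CPM in cKO testes, with the cKO pools inside the control range (log2 fold change -0.19, adjusted p = 0.464). Pdk3 had 58.9 to 68.4 CPM in control testes and 55.5 to 97.9 CPM in cKO testes, where cKO replicates 5 and 6 stood at 97.5 and 97.9 CPM (log2 fold change 0.23, SE 0.13, adjusted p = 0.286). These pools also had the highest sum of 7 meiosis genes, 992 and 989 CPM against 159 to 462 CPM in the other 10 libraries, and high Xist. Without the 4 libraries with high Xist the log2 fold change of Pdk3 was -0.05, and without cKO replicate 6 alone it was 0.13. The part of those libraries in the Pdk3 value beyond this was not tested.

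Among the Hif factors and oxygen sensors, Hif1a was the gene whose groups did not overlap. Hif1a (Entrez Gene 15251, chr12:73901324-73947554, plus strand), the oxygen-regulated alpha subunit present in most cells, had 274, 293 and 299 CPM in control pools and 303, 318 and 337 CPM in cKO testes as lowest, median and highest. All 6 cKO pools lay above every control pool, as was the case for 2.38% of all genes tested. The means were 291 ± 9.5 and 318 ± 11.7 CPM, a log2 fold change of 0.13 (SE 0.05), which edgeR did not call (adjusted p = 0.139) and DESeq2 called (adjusted p = 0.0157). In the 8 libraries with low Xist the difference was 0.12 (adjusted p = 0.267). Epas1, the alpha subunit known from endothelial cells, ranged from 33.2 to 87.2 CPM in control pools and from 46.4 to 75.0 CPM in cKO testes (log2 fold change 0.08, SE 0.20, adjusted p = 0.828).

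The oxygen sensors Egln1 and Egln3 hydroxylate Hif alpha subunits and are themselves Hif targets. Egln1 had 55.2, 66.3 and 102 CPM in control pools and 56.9, 60.5 and 66.6 CPM in cKO testes (log2 fold change -0.25, adjusted p = 0.235, and -0.12 without control replicate 1). Egln3 (Entrez Gene 112407, chr12:54178981-54203874, minus strand) was less abundant, at 8.75, 14.4 and 20.5 CPM in control pools and 7.20, 9.54 and 12.5 CPM in cKO testes. Its log2 fold change of -0.63 (SE 0.21) was not called by edgeR (adjusted p = 0.0858). It was called by DESeq2 (adjusted p = 0.0354), by edgeR with Xist as a covariate (adjusted p = 0.0282) and by edgeR with replicate number as a block (adjusted p = 0.0344). In the 8 libraries with low Xist it was -0.66 (adjusted p = 0.126). The groups of both genes overlapped.

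The remaining 7 targets of Hif include the second gene called. P4ha2 (Entrez Gene 18452, chr11:54100924-54131667, plus strand), whose upstream sequence is printed above, encodes a catalytic subunit of the prolyl hydroxylase that stabilises collagen. It had 33.2, 21.3, 19.98, 21.1, 39.0 and 33.7 CPM in control replicates 1 to 6 and 17.5, 20.2, 16.9, 17.8, 18.4 and 18.1 CPM in cKO replicates 1 to 6. In 5 of the 6 cKO pools the level was below every control pool, and cKO replicate 2 lay just above the lowest control. The means were 28.0 ± 8.22 and 18.2 ± 1.15 CPM, and the gene was called lower (log2 fold change -0.62, SE 0.16, adjusted p = 0.0286). The call held in 5 of the 12 leave-one-out fits, and was lost without control replicate 5 or 6 or without cKO replicate 1, 3, 4, 5 or 6, the adjusted p-values running from 0.0151 to 0.0688. It was also lost in the 8 libraries with low Xist (log2 fold change -0.52, adjusted p = 0.153). On all 12, limma-voom (adjusted p = 0.0519) and edgeR with replicate number as a block (adjusted p = 0.0516) did not call it. Of the marker sums given above, the contractile sum was lower in every cKO pool than in any control pool, and the interstitial sums overlapped. Their part in the P4ha2 value was not tested. P4ha1, the sister subunit, had 81.6, 103 and 150 CPM in control pools and 74.3, 81.8 and 101 CPM in cKO testes (log2 fold change -0.33, adjusted p = 0.174).

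Ndrg1 (Entrez Gene 17988, chr15:66929318-66969641, minus strand), a stress-responsive gene also linked to myelin maintenance, had the largest fold change of the 36 in the fit to all 12 libraries. Its control pools had 68.5, 24.8, 21.6, 24.5, 50.9 and 35.4 CPM in replicates 1 to 6, and its cKO pools ranged from 20.1 to 23.8 CPM. Only control replicate 3 lay within the cKO range. The log2 fold change was -0.81 (SE 0.25), not called by edgeR at an adjusted p of 0.0584 and called by DESeq2 at 0.0109 and by edgeR with Xist as a covariate at 0.0168. Without the libraries with high Xist, which removes its highest pool, it was -0.57 (adjusted p = 0.162), and it was -0.54 without control replicate 1 alone.

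Bnip3 (Entrez Gene 12176, chr7:138890836-138909506, minus strand) encodes a mitochondrial protein that promotes mitophagy in low oxygen. It had 72.5, 36.5, 39.2, 34.2, 131 and 96.5 CPM in control replicates 1 to 6 and 41.6, 37.7, 41.5, 35.3, 56.4 and 52.0 CPM in cKO replicates 1 to 6. The highest control pool thus had 3.84 times the level of the lowest, against 1.60 times among cKO pools. With this spread its log2 fold change of -0.63 had an SE of 0.30 (adjusted p = 0.211), and it was -0.32 without control replicate 5. In the 8 libraries with low Xist it was -0.79 (adjusted p = 0.236), the largest change of the 36 there. Ankrd37, a small ankyrin repeat gene induced by hypoxia, had 3.82, 5.56 and 11.9 CPM in control pools and 3.72, 4.37 and 6.78 CPM in cKO testes (log2 fold change -0.51, adjusted p = 0.248, and -0.24 without control replicate 5). Car9 stayed between 0.528 and 1.95 CPM in all 12 libraries (log2 fold change 0.09, SE 0.33, adjusted p = 0.892). Ddit4, an inhibitor of mTORC1 signalling, had 70.4, 76.5 and 102 CPM in control pools and 78.8, 94.9 and 99.8 CPM in cKO testes (log2 fold change 0.21, SE 0.09, adjusted p = 0.181), and it was called higher when control replicate 1 was left out (adjusted p = 0.0183), in a fit that called 9.44% of all genes higher.

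**Figure D3:**
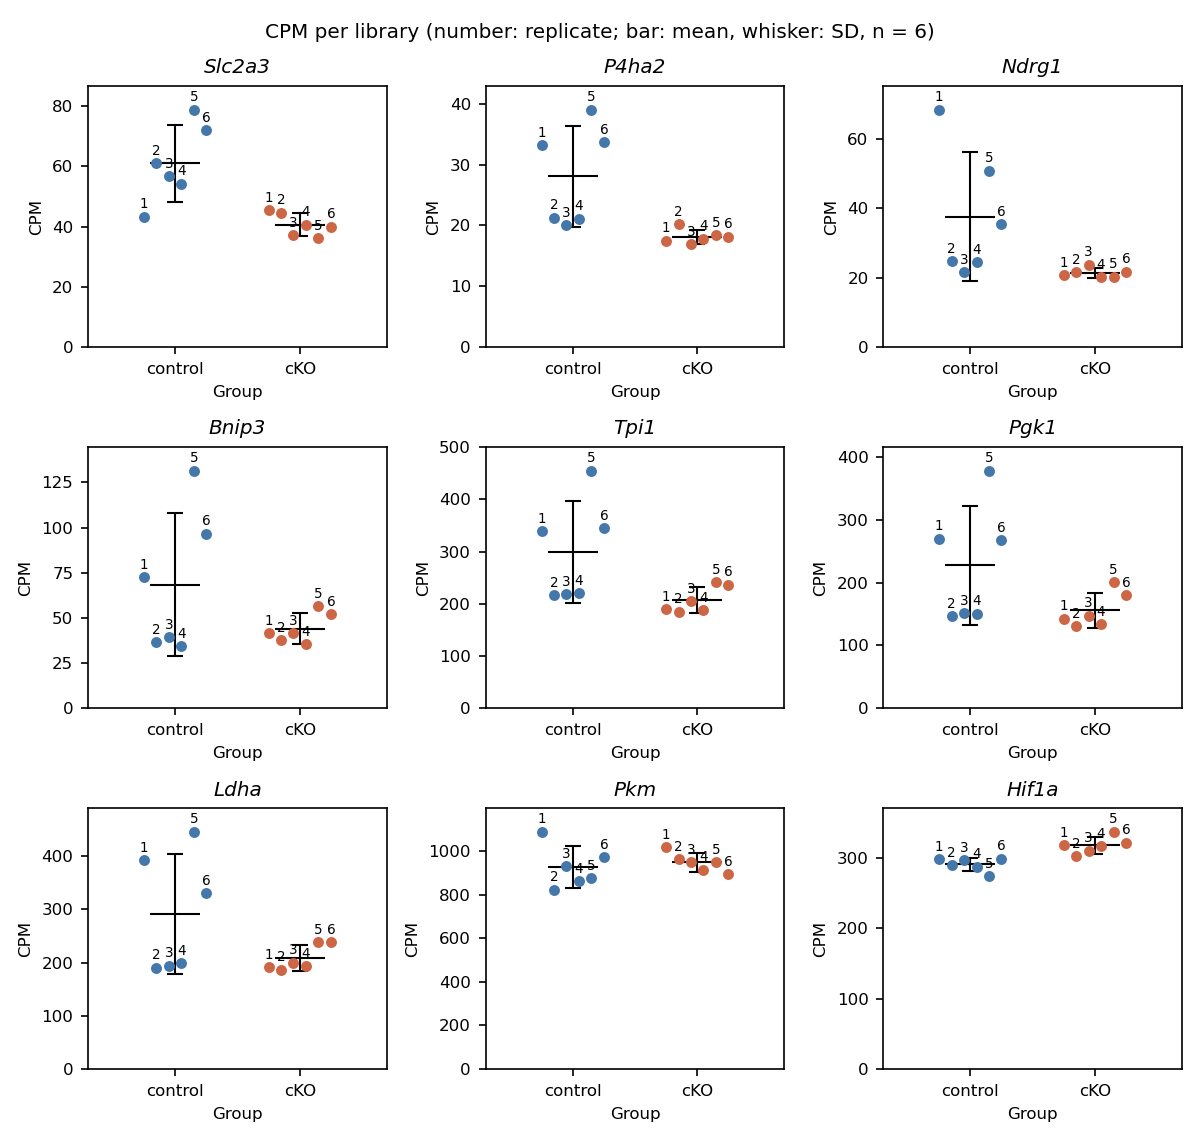
Level in each of the 12 pools (CPM) of genes on which the results turn, with replicate numbers beside the points, the mean as a line and the SD as whiskers (n = 6). For Tpi1, Pgk1, Ldha and Bnip3, control replicates 1, 5 and 6 are the 3 highest pools and the other controls lie among the cKO pools or, for Bnip3 in control replicate 4 (34.2 CPM), just below them, whereas Hif1a is higher in all 6 cKO pools.

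The same pattern among control pools recurred across the 36 genes, and it was noticed after the values had been seen. In 17 of the 36 the 3 highest of the 12 values were those of control replicates 1, 5 and 6, as in 2.1% of all genes tested. The 17 were the transporters Slc2a1 and Slc16a3, the enzymes Pfkl, Pfkp, Tpi1, Gapdh, Pgk1, Eno1, Eno2, Ldha and Pdk1, the sensors Egln1 and Egln3, and the targets Bnip3, Ndrg1, P4ha1 and P4ha2. The mean deviation of the 36 genes from their control means of log2 CPM was 0.32, 0.27 and 0.11 in control replicates 1, 5 and 6, and -0.27, -0.19 and -0.25 in control replicates 2, 3 and 4. In cKO pools it ran from -0.28 to -0.11, and control replicates 2, 3 and 4 lay inside that range. Across the 7 remaining Hif targets the deviations were wider, at 0.44, 0.58 and 0.24 in control replicates 1, 5 and 6 and from -0.49 to -0.19 in cKO pools.

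The control pools were accordingly more spread than the cKO pools, and leaving out 1 of them moved further values that were not called by over 1.5 times. Without control replicate 5, the log2 fold change was -0.28 for Pfkp, -0.095 for Gapdh, -0.094 for Eno1, -0.087 for Ldhb, -0.081 for Pdk1 and -0.20 for P4ha1. Without control replicate 1, it was -0.048 for Hk2, -0.071 for Pfkl, -0.0088 for Pfkm, -0.028 for Pfkfb3, -0.030 for Pfkfb4, 0.083 for Pkm and -0.20 for Slc16a3. The SD of log2 CPM was larger in control than in cKO testes for 32 of the 36 genes (88.9%), against 69.9% of all genes tested. Its median over the 36 genes was 0.35 in control and 0.12 in cKO testes, where over all genes it was 0.23 and 0.15. Total counts of control replicates 1, 5 and 6 were 36649433, 13601952 and 7044531, so they include the 2 shallowest control libraries and the second deepest. Among the control pools alone, these replicates had the 3 lowest sums of Sertoli cell markers (1264, 936 and 1248 CPM, against 1293 to 1488), the 3 highest sums of macrophage markers (53.2, 70.5 and 59.7 CPM, against 46.5 to 50.3) and the 3 highest sums of meiosis genes (462, 292 and 235 CPM, against 159 to 205). Every marker list was searched for such an order. In no other list were control replicates 1, 5 and 6 the 3 highest or the 3 lowest controls. The number of matches that chance would give was not counted. Immediate early genes, which rise with handling of tissue, summed to 112, 75.7 and 94.8 CPM in control replicates 1, 5 and 6 and 102 to 121 CPM in the other controls. Only control replicate 1 of the 3 had high Xist. The part of depth, cell makeup and handling in this pattern was not tested.

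**Figure D4:**
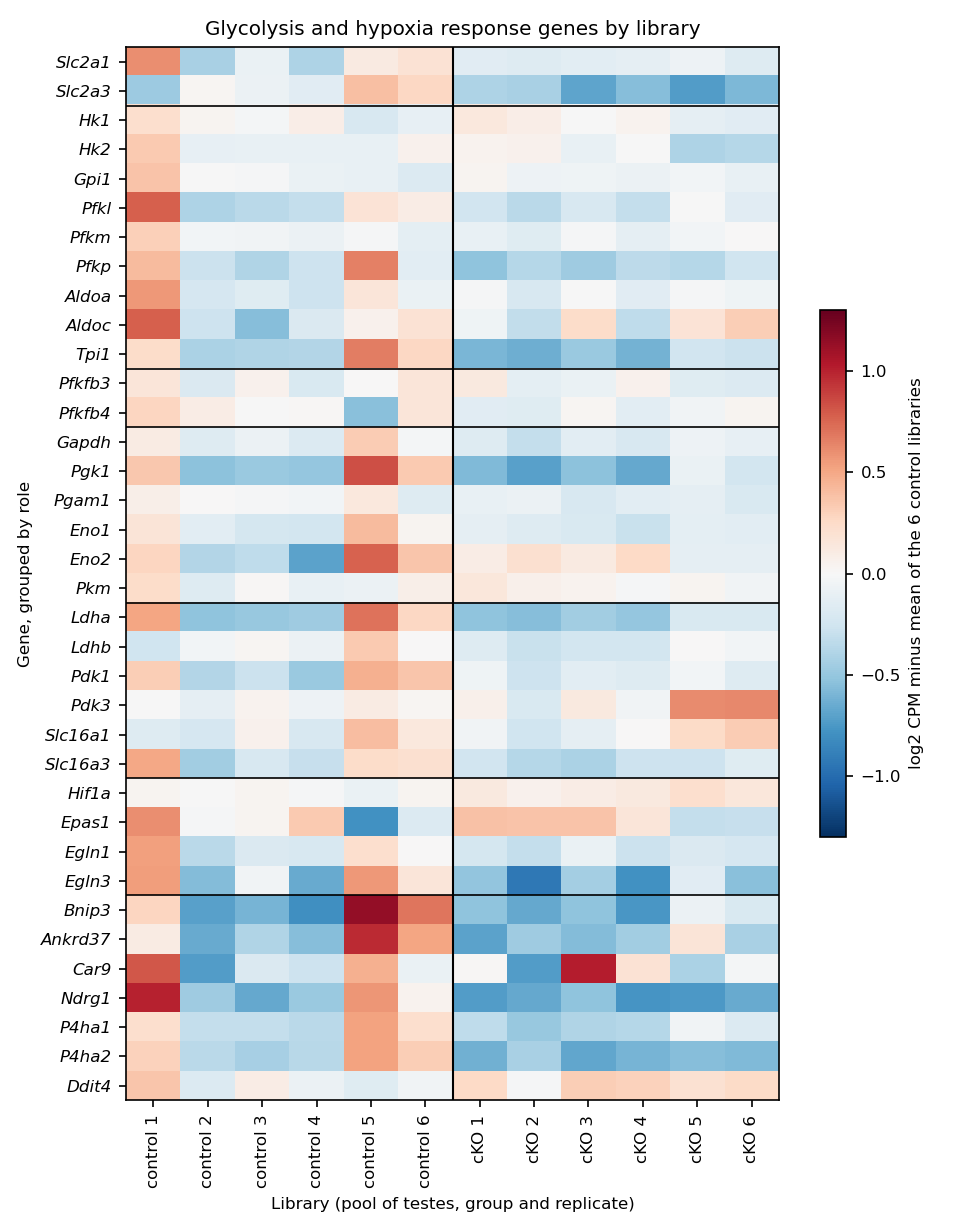
Log2 CPM of each of the 36 genes in each of the 12 libraries, as the deviation from the mean of the control pools, with genes grouped by role. Averaged over the 36 genes, control replicates 1, 5 and 6 lie above the control mean by 0.32, 0.27 and 0.11, and every other pool lies below it.

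The letters ACGTG were also counted by this order of libraries. Of the 16 genes with the order and a promoter window, 10 held ACGTG on either strand, and of the 17 other genes with a window, 11 did.

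Alternative forms of the same enzyme or transporter were compared as the log2 ratio of their counts in each library, so that no scaling enters. In a two-sided exact permutation test on the pools, 3 of the 13 ratios had an unadjusted p under 0.05 and none passed the Benjamini-Hochberg adjustment over the 13. The difference with the lowest p was that of P4ha2 over P4ha1, which was lower in cKO testes by 0.28 on the log2 scale (exact permutation p = 0.013, adjusted p = 0.169). Slc16a3 over Slc16a1 differed by -0.31 and Egln3 over Egln1 by -0.35 (exact permutation p = 0.0433 and 0.0476, adjusted p = 0.206 for both). Slc2a3 over Slc2a1 differed by -0.43 (exact permutation p = 0.0974, adjusted p = 0.239), and in control replicate 1 this ratio was -1.29 where the other controls lay between -0.21 and 0.23. Without that library the difference was -0.64 (adjusted p = 0.0281 by the exact permutation test), and without cKO replicate 2 that of P4ha2 over P4ha1 was -0.35 (adjusted p = 0.0281).

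The other 9 ratios had unadjusted exact permutation p-values from 0.108 to 0.952. The subunit ratio of lactate dehydrogenase, Ldhb over Ldha, was 0.38 ± 0.54 in control and 0.62 ± 0.06 in cKO testes (log2, SD, n = 6), a difference of 0.24 that was smaller than the control spread (exact permutation p = 0.286). Its control values reached from -0.39 in replicate 1 to 0.90, so that Ldha counts exceeded Ldhb counts in that pool. Pdk3 over Pdk1 was higher in cKO testes by 0.34 (exact permutation p = 0.11). The hexokinase, phosphofructokinase, aldolase and enolase ratios differed by -0.18 to 0.25.

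**Figure D5:**
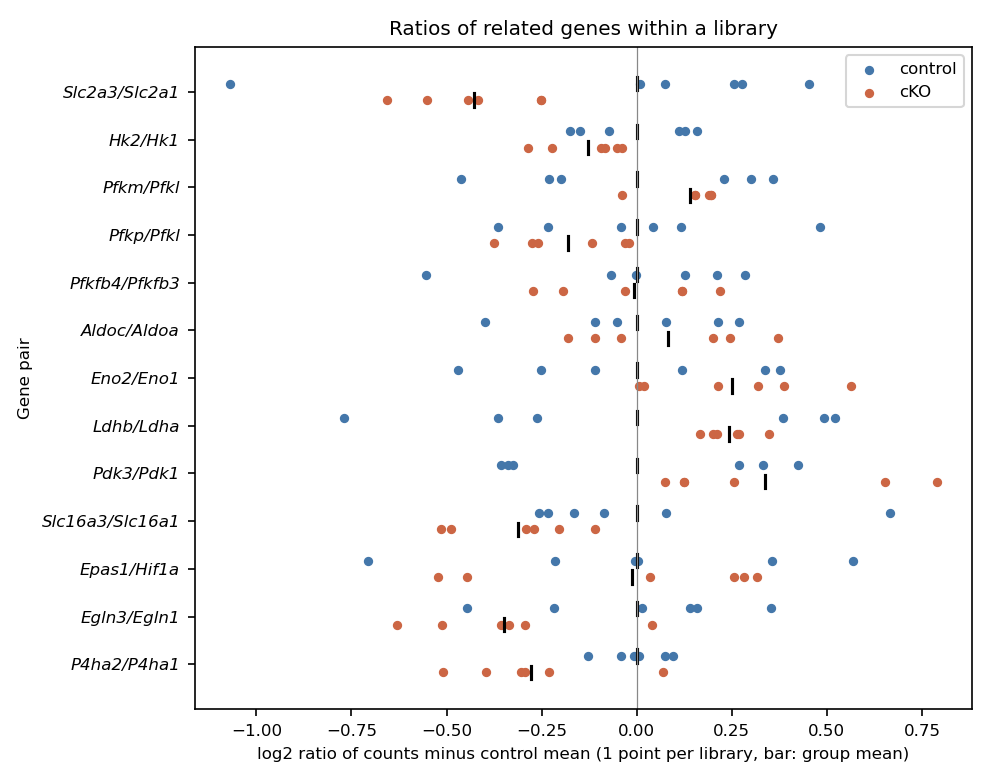
Log2 ratio of the counts of paired forms in each of the 12 libraries, drawn as the difference from the control mean of that ratio, with bars at the group means. Before that mean was subtracted, the cKO pools of Ldhb/Ldha sat within 0.55 to 0.73 and the control pools between -0.39 and 0.90, and the control point far to the left for Slc2a3/Slc2a1 is replicate 1.

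A wider list of 107 genes of the same metabolism was counted in the same fit, of which 105 were tested and 9 were called lower and 1 higher, where 4.85% and 3.28% of all genes were. Without control replicate 1, 14 were called lower and 5 higher, in a fit that called 10.5% of all genes lower and 9.44% higher. Their median log2 fold change was -0.09. Among 19 other glycolytic and transport genes, Eno3 was the one called higher. Eno3, the muscle form of enolase, had 8.41 to 10.6 CPM in control pools and 12.8 to 15.5 CPM in cKO testes, without overlap (log2 fold change 0.61, SE 0.09, adjusted p = 0.000749). It was called in all 12 fits that left out 1 library and in the 8 libraries with low Xist (log2 fold change 0.61, adjusted p = 0.00418), where 3.68% of genes were called higher. Thus the 3 enolase genes had log2 fold changes of -0.19 for Eno1, 0.03 for Eno2 and 0.61 for Eno3, and only that of Eno3 was called. Slc2a4, the insulin-responsive glucose transporter, was called lower, from 10.4 to 14.4 CPM in control to 8.002 to 9.71 CPM in cKO testes (log2 fold change -0.48, SE 0.09, adjusted p = 0.00608).

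Of the mitochondrial routes, none of the 10 genes of pyruvate entry and pyruvate dehydrogenase was called by edgeR. At an unadjusted p under 0.05, 1 was lower and 0 higher, where 13.2% and 12.1% of all genes were. Of 17 genes of the tricarboxylic acid cycle, Idh2, the mitochondrial isocitrate dehydrogenase that uses NADP, was the one called (log2 fold change -0.22, SE 0.06, adjusted p = 0.0347). Its levels were 220 to 273 CPM in control pools and 216 to 224 CPM in cKO testes, and control replicate 6 at 220 CPM was the one control within the cKO range. At an unadjusted p under 0.05, 3 genes of the cycle were lower and 1 was higher, where 13.2% and 12.1% of all genes were. The median of the cycle was -0.01. The higher one, Ogdh, a subunit of the oxoglutarate dehydrogenase complex, is named after its values were seen. It had 107 to 228 CPM in control pools and 229 to 259 CPM in cKO testes, without overlap (log2 fold change 0.39, SE 0.14, adjusted p = 0.104). None of the 7 genes of the pentose phosphate pathway was called, and none of them had an unadjusted p under 0.05. In the glycogen list, 10 of 11 genes had a negative log2 fold change, against 49.4% of all genes, with a median of -0.18. Of the 11, 2 were called lower, where 4.85% of all genes were. These were Pygl, the liver form of glycogen phosphorylase (-0.54, SE 0.14, adjusted p = 0.0304), and Pgm2, a phosphoglucomutase (-0.39, SE 0.11, adjusted p = 0.04). Pygl had 63.2, 62.7 and 55.8 CPM in control replicates 1, 5 and 6, 35.5 to 39.8 CPM in the other controls and 31.2 to 36.6 CPM in cKO testes.

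Of 8 other regulators of the Hif pathway, Arnt2, a partner subunit of Hif alpha, was called lower (log2 fold change -0.25, SE 0.06, adjusted p = 0.0284), from 38.5 to 43.3 CPM in control to 31.0 to 37.1 CPM in cKO testes. Of 36 further Hif targets, 4 were called lower and none higher, where 4.85% and 3.28% of all genes were. At an unadjusted p under 0.05, 10 were lower and 0 higher, where 13.2% and 12.1% of all genes were. The median of these targets was -0.17, and 25 of 36 were negative, against 49.4% of all genes. Lox, which crosslinks collagen and is abundant in mesenchymal cells, had the largest fall, from 84.6 to 119 CPM in control to 31.1 to 64.0 CPM in cKO testes (log2 fold change -1.03, SE 0.14, adjusted p = 0.000713). Selenbp1, a methanethiol oxidase, fell from 33.5 to 46.6 CPM to 24.9 to 29.8 CPM (log2 fold change -0.50, SE 0.09, adjusted p = 0.00326). Mxi1, a Myc antagonist (-0.26, SE 0.06, adjusted p = 0.0205), and Hilpda, a lipid droplet protein (-0.39, SE 0.10, adjusted p = 0.0308), were the other genes called. All 4 had groups that did not overlap, as did 3.13% of all genes in the lower direction. Of the genes called in the wider lists, Slc2a4, Lox and Selenbp1 were called in all 12 fits that left out 1 library and also in the 8 libraries with low Xist. Mxi1 was called in 11 of those fits, Pygl and Arnt2 in 6, Hilpda in 5 and Idh2 and Pgm2 in 3, and none of these was called in the 8 libraries.

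The order of libraries seen in the 36 genes also appeared in this list. Of the 36 further targets, 8 had their 3 highest values in control replicates 1, 5 and 6, as did 2.1% of all genes tested. They were Vegfa, Kdm3a, Mxi1, Bhlhe40, Ero1a, Lox, Ier3 and Narf. Vegfa, the angiogenic growth factor that Hif is known to induce, is named for its values, which were seen first. It had 257, 81.3, 84.8, 86.9, 128 and 138 CPM in control replicates 1 to 6 and 84.8 to 101 CPM in cKO testes, so control replicate 1 had more than any other pool (log2 fold change -0.45, SE 0.24, adjusted p = 0.253). For 32 of these 36 targets the SD of log2 CPM was larger in control than in cKO testes, against 69.9% of all genes tested.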

How the data were processed

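RNA was sequenced by the authors from polyadenylated, strand-specific libraries, 1 for each pool of 3 testes. Per the labels, reads were trimmed with Trim Galore 0.6.7, aligned with STAR 2.5 to mm10 and counted with featureCounts of Subread 1.5.0-p1. The authors deposited raw counts per gene, with no normalization, for 24470 genes in 12 libraries (6 control and 6 cKO, grouped by the genotype in the labels), and all columns were used. Assignment of reads shared by near-identical copies follows that counter and can move the level of such genes.

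edgeR 4.0.16 was run in R 4.3.3. Genes were kept by filterByExpr (minimum count 10, minimum total 15), which left 15572, libraries were scaled by TMM, and groups were compared by glmQLFit and glmQLFTest without covariates, with Benjamini-Hochberg adjustment over all genes and a threshold of 0.05. The biological coefficient of variation was 0.170, and the spread between pools rather than counting set the precision for all but the lowest genes. A prior count of 2 was used for log2 CPM. The SE of a log2 fold change is its size over the square root of the F statistic. Exon lengths came from GENCODE M21 transcripts, promoter windows from RefSeq. No 2 libraries of the same group agreed within sampling noise.

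The genes and lists were chosen with earlier results of these data known. All 36 genes are reported, called genes with every sample; in the wider lists, up to 4 called genes per list with the largest change are named, and others were chosen after their values were seen. Ratios were compared by an exact permutation test. The alternatives were other scalings and filters, DESeq2 1.42.0 (the authors used DESeq2 in another version), limma-voom (limma 3.58.1) with and without sample weights, a replicate block, Xist as a covariate, leave-one-out fits, and a fit to the 8 libraries whose Xist was below 100 CPM.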

Additional observations from a re-analysis of the deposited data

Results flagged for a closer look

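In each group of 6 pools, the highest and the lowest value of each of the 36 genes, the 13 ratios, the 10 called genes of the wider lists, Nr2f2, Vegfa and Xist were compared with the rest of the group by Dixon's criterion, and 12 of 124 such groups held a pool that stood apart. Vegfa and Xist were added after their values were seen. Chance alone gives about 1 in 20. Control replicate 1, the control with high Xist (891 CPM, against 5.152 to 6.4002 CPM in the others), was the highest control for Hk2 at 90.8 CPM (66.3 to 74.4 CPM in the others), for Gpi1 at 351 CPM (240 to 270.1 CPM in the others) and for Pfkm at 73.5 CPM (54.0 to 58.4 CPM in the others). It was also highest for Vegfa, at 257 CPM (81.3 to 138 CPM in the others). In the same pool the log2 ratio of Slc2a3 over Slc2a1 was the lowest of the controls, at -1.29 (-0.21 to 0.23 in the others), and that of Slc16a3 over Slc16a1 the highest, at 0.32 (-0.60 to -0.27 in the others). Among cKO pools, Ankrd37 was highest in replicate 5 at 6.78 CPM (3.72 to 4.48 CPM in the others), and the log2 ratio of Pfkm over Pfkl was lowest in the same pool at -1.197 (-1.01 to -0.96 in the others). In cKO replicate 2, Slc2a4 was highest at 9.71 CPM (8.002 to 8.55 CPM in the others) and Hilpda lowest at 6.41 CPM (8.002 to 8.86 CPM in the others). Idh2 was lowest in control replicate 6, at 220 CPM (256 to 273 CPM in the others).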

How the results depend on the processing

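Among the 36 genes, DESeq2 called 5 lower and 1 higher, limma-voom 1 lower (4.59% of all genes), limma-voom with sample weights 3 lower (Slc2a3, Ldhb and P4ha2) and 3 higher (Eno2, Hif1a and Ddit4; 12.8% and 12% of all genes), the fit with Xist as a covariate 5 lower (Slc2a3, Tpi1, Egln3, Ndrg1 and P4ha2; 4.6% of all genes), and the 8 libraries with Xist under 100 CPM 1 lower (3.39%). Of the other genes of the pathway, DESeq2 called 2 higher, sample weights 14 lower and 9 higher, the Xist covariate 2 higher, and the 8 libraries 3 lower. Leaving out each library in turn gave 1 to 4 of the 36 lower and 0 to 1 higher, 4 to 14 other pathway genes lower and 1 to 5 higher, and -1.38 to -1.12 for Nr2f2. Over all genes, 756 were called lower and 510 higher, but 1992 and 1868 with sample weights and 1635 and 1471 without control replicate 1, and 497 and 319 without cKO replicate 4. The cause was not tested.

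No called gene of the 36 changed direction. Log2 fold changes that did were Hk1 without scaling factors (0.024), Aldoc with limma-voom (0.038), and, with sample weights, Slc2a1 (0.094), Hk1 (0.018), Hk2 (0.023), Pfkl (0.0056), Aldoa (0.076), Aldoc (0.20), Pfkfb3 (0.066) and Pdk1 (0.12). With Xist as a covariate they were Slc16a1 (-0.00297) and Car9 (-0.041), and in the 8 libraries Hk1 (0.13), Hk2 (0.10), Gpi1 (0.043), Pfkfb3 (0.062), Pdk3 (-0.051), Slc16a1 (-0.14) and the ratios Aldoc over Aldoa (-0.067) and Epas1 over Hif1a (0.32). Leaving out each library, Hk1 ran from -0.038 to 0.039, Gpi1 from -0.095 to 0.021, Aldoa from -0.16 to 0.028, Aldoc from -0.14 to 0.19, Slc16a1 from -0.043 to 0.12, Eno2 from -0.094 to 0.22, Car9 from -0.22 to 0.37, Epas1 from -0.036 to 0.22, and the ratios Pfkfb4 over Pfkfb3 from -0.12 to 0.050 and Epas1 over Hif1a from -0.15 to 0.10.

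Over all genes tested, the deviations of same-numbered control and cKO libraries had correlations from -0.33 to 0.24. These correlations do not settle whether the numbers pair the samples. With a replicate block, 3 of the 36 genes were called lower (Slc2a3, Tpi1 and Egln3) and 0 higher, where 3.46% and 2.52% of all genes were, while P4ha2 was not (adjusted p = 0.0516), 3 other pathway genes lower and 1 higher, Nr2f2 was at -1.26 and Aldoc at 5.01e-05. Depth limits what can be said of the lowest genes, Car9 and Eno2, in the libraries near 7044531 counts.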
